A study of Mus musculus with 3 samples.

Results

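The granulation tissue spots of the Day 7 skin wound were 81 spots, out of 539 used on the Day 7 section and 1748 used over the 3 sections of the series. They were selected on measured values. On the Day 7 slide, spots marked as lying under tissue and holding at least 500 unique molecular identifiers (UMIs, each standing for 1 captured RNA molecule) were scored by the share of their UMIs that came from 10 genes of wound matrix, namely *Tnc*, *Timp1*, *Lox*, *Loxl2*, *Plod2*, *Thbs2*, *Col12a1*, *Vcan*, *Mmp14* and *Lrrc15*, and the top 15% by this score were taken. The remaining 458 spots served as the comparison, and the 10 score genes were left out of it. The spots just inside the limit had 4996, 5014 and 5025 score UMIs per 1000000 UMIs, and those just outside had 4977, 4962 and 4923. The members had a median score of 6285 by the same measure and the other spots a median of 3159.

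The series measured full-thickness excisional wounds in the back skin of adult male C57BL/6J mice by Visium, with 1 section each from Day 3, Day 7 and Day 14 post injury and no allele or treatment named other than the wound. In Visium, a frozen section lies on a slide of barcoded spots that capture polyadenylated RNA. A spot covers a small region that can hold several cells of different types, so a lower value can come from fewer cells of a type or from less RNA per cell, and these cannot be told apart. Because each day had 1 section, no test was possible, spots were not treated as replicates, and the 95% intervals given here cover counting error only.

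Granulation tissue is the provisional connective tissue that fills a skin wound beneath the regrowing epidermis. Fibroblasts in it lay down fibronectin, fibrillar collagens and matricellular proteins, which tune how cells hold on to the matrix, and some of them become myofibroblasts, whose actin and myosin pull the wound edges together. New vessels and macrophages enter the same tissue, and the matrix is later cross-linked and remodelled into scar.

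The members held 1191429 UMIs in all, against 3248921 in the other Day 7 spots. The depth of a member ran from 1194 to 33757 UMIs with a median of 13158, and that of another spot from 539 to 23909 with a median of 5972.5. A member had a median of 4312 detected genes and another spot 2640. The selected spots thus tended to be deeper, and where a call was lost against other spots of like depth, that value is given here or in the closing section. UMIs of the 13 mitochondrially encoded genes made up 2.34% of UMIs in members and 4.24% elsewhere. The same 4992 positional barcodes occur on all 3 slides, as the slide design sets, so a barcode does not identify a section.

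The members lay together. Joining spots that touch on the hexagonal grid gave 1 patch of 62 spots, which was 76.5% of the members. The other 19 members fell into a group of 3, a group of 2 and 14 single spots. The patch was 15 spot pitches wide in a section of 37 and 6.06 high in a section of 18.2. Of the members, 19 were surrounded on all 6 sides by members. Median depth was 17032.5 UMIs in the patch and 5069 in the members outside it. The same share of spots, chosen by the same score within the other sections, was less gathered, with 29 of 78 spots in the largest patch on Day 3 and 37 of 103 on Day 14. Those chosen spots were shallower, with a median of 2373.5 UMIs on Day 3 and 4490 on Day 14, against 13158 on Day 7. Fewer UMIs make the score of a spot less certain, and the part of depth in this difference was not tested.

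**Figure D1:**
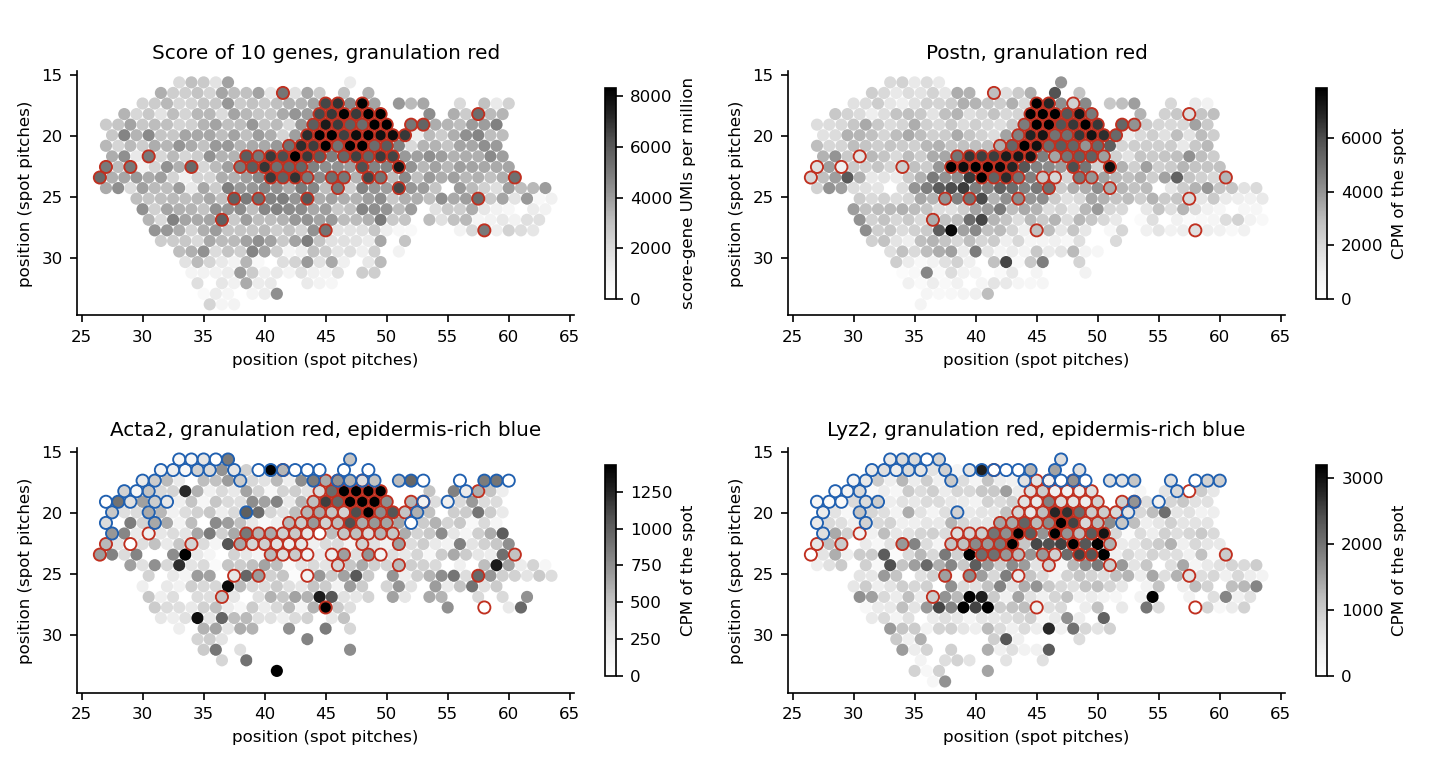
Maps of the Day 7 section, with each point a spot used and both axes giving position in spot pitches; colour shows the score or the CPM of the gene named above each panel, capped at the 98th percentile, and red outlines mark the 81 granulation spots, with blue outlines for epidermis-rich spots in the lower panels. The 62 spots of the largest patch form 1 block, and 19 members lie outside it.

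The 10 score genes are described here and support nothing, since they chose the members. Together they took 6843 UMIs per 1000000 UMIs (counts per 1000000, CPM) in members and 3295 CPM in other spots. Their ratios differed: on the log2 scale *Col12a1* and *Lrrc15* each stood at 1.47, *Thbs2* at 1.20, *Timp1* at 1.01 and *Vcan* at 0.19. A choice made with 5 of the genes left the other 5 to be read as values. In spots chosen by *Tnc*, *Lox*, *Plod2*, *Col12a1* and *Mmp14*, the ratio of *Lrrc15* was 1.34 (1.20 to 1.48), that of *Thbs2* 1.06 (0.96 to 1.17), that of *Timp1* 0.94 (0.74 to 1.14), and that of *Vcan* 0.03 (−0.26 to 0.32). In spots chosen by the other 5 genes, *Col12a1* stood at 1.32 (1.23 to 1.40) and *Tnc* at 0.52 (0.44 to 0.61).

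Across the section, 6691 genes outside the score had at least 100 UMIs over both groups of spots. A gene was counted as higher or lower where its pooled CPM differed by at least 1.5-fold. By this rule 474 genes (7.08%) were higher in the granulation spots and 919 (13.7%) lower, and the median log2 ratio over all of them was −0.03. The interval of the log2 ratio lay above 0 for 1080 genes, below 0 for 1265, and held 0 for 4346. With the mean of spot CPM in place of pooled CPM, which weights shallow and deep spots equally, 757 genes were higher and 831 lower. The shares of 7.08% and 13.7% are the background against which the counts of each gene group below are to be read. The members, the score and the lists are not independent of these data, and a high value of a matrix gene follows in part from a score made of matrix genes.

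The label of granulation tissue was checked against genes outside the score. More genes of the matrix and contractile lists were higher than lower, though many were within 1.5-fold, and most epidermal, fat and muscle genes were lower, with the counts given below. Muscle RNA was nevertheless present in every member: the 10 counted genes of mature skeletal muscle summed to between 15697 and 117253 CPM per member, with a median of 25235, against 19201 to 234026 with a median of 64737 in other spots. All 10 were lower in members, with a median log2 ratio of −1.18. The epidermis list was lower for 11 of its 12 counted genes with a summed level of 2559 CPM against 5445, the fat list for 9 of 9 with 4341 against 7756, and the sebaceous and hair list for 5 of 6. Any part that fewer muscle, fat and epidermal molecules have in the higher share of matrix molecules was not tested.

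**Figure D2:**
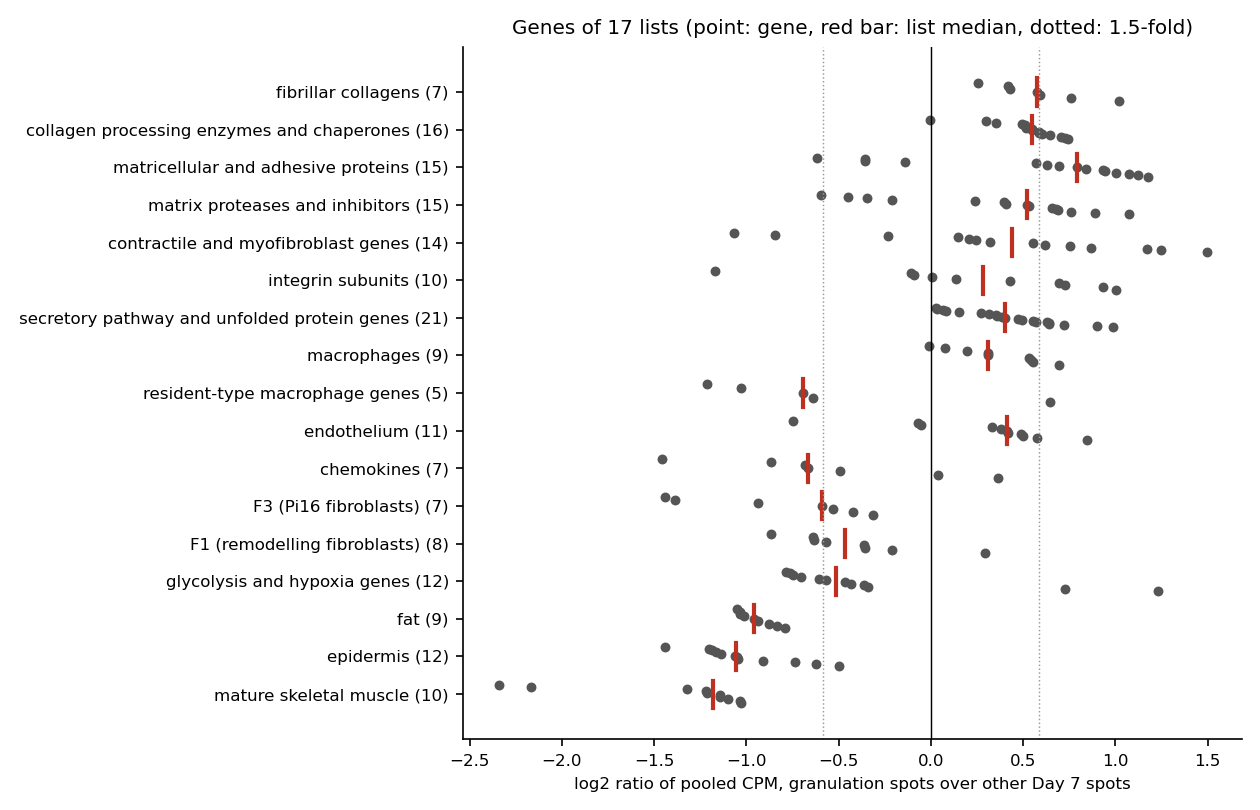
Log2 ratio of pooled CPM, granulation over other Day 7 spots, with each point a gene of at least 100 UMIs in 1 of 17 lists (number of genes in parentheses), a red bar at each list's median and dotted lines at 1.5-fold. Matricellular proteins have the highest median of the matrix lists (0.79), and the muscle, epidermis and fat lists lie lowest.

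Fibrillar collagens, the rope-like collagens that give dermis its strength, were moderately higher. The 7 counted genes summed to 86598 CPM in members and 60797 CPM elsewhere. Of the 7, 3 were at least 1.5-fold higher and none lower, with a median log2 ratio of 0.58. *Col5a2*, a chain of the type V collagen that starts fibrils, ranged from 337 to 3819 CPM over members (median 1710) and from 0 to 3331 (median 786) over other spots. The ranges overlapped, and the pooled level was 2.03-fold higher (log2 1.02, 0.94 to 1.10). *Col3a1*, the collagen of early wound matrix, ranged from 5025 to 30591 CPM (median 18468) in members and from 0 to 41471 (median 10378) in the others, a 1.69-fold difference in pooled level. *Col1a1*, the main chain of mature dermis, ranged from 14238 to 58528 CPM (median 36642) in members and from 1603 to 60147 (median 26191) elsewhere. Its log2 ratio of 0.42 (0.40 to 0.44) stayed under 1.5-fold, as did that of *Col1a2* at 0.43. So of the 4 fibrillar chains named, those of type I differed least from the rest of the section. Among the 10 other collagens 4 were higher, including *Col18a1* of basement membranes at 0.84 and *Col6a3* of the pericellular network at 0.73.

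Matricellular and adhesive proteins had the highest median of the matrix lists. Of 15 counted genes 10 were higher and 1 lower, with a median log2 ratio of 0.79 and a summed level of 24623 CPM against 13939. The lower one was *Ccn5*, at −0.62 with an interval that held 0 (−1.36 to 0.07). *Postn* encodes periostin, which links collagen to fibronectin and tenascin. Over members it ranged from 1010 to 12804 CPM with a median of 5348, and over other spots from 0 to 7602 with a median of 2343. Every member held *Postn*, while 22 of the other spots had none. Members had at least 1194 UMIs and other spots went down to 539, and the part of depth in this was not tested. Pooled, the level was 6238 CPM (6097 to 6381) against 2761 CPM (2704 to 2819), or 2.26-fold higher. Against other spots of like depth, the log2 ratio was 1.02 instead of 1.18.

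*Tnn*, which encodes tenascin-W, ranged from 0 to 1464 CPM (median 400) in members and from 0 to 1521 (median 186) in other spots, with a log2 ratio of 1.12 (0.97 to 1.28). *Fn1*, the gene of fibronectin, ranged from 278 to 2869 CPM (median 1347) in members and from 0 to 2755 (median 691) elsewhere, with a log2 ratio of 0.95 (0.86 to 1.03). For both genes the medians were clearly apart and the ranges overlapped. *Fbln2* had 1573 CPM against 785. The log2 ratio of *Ccn4*, a secreted Wnt target, was 1.07, with *Tgfbi* at 0.93 and the collagen-binding *Sparc* at 0.70. *Spp1*, the gene of osteopontin, was lower at −0.36 (−0.56 to −0.16), within 1.5-fold.

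The proteoglycans and elastic fibre genes were mixed. Of 8 small leucine-rich proteoglycans, 2 were higher and 1 lower: *Aspn*, which encodes asporin, had 688 CPM in members and 368 CPM elsewhere (log2 0.90, 0.77 to 1.03), and *Bgn* stood at 0.78. *Dcn*, the decorin gene used as a general fibroblast marker, had a log2 ratio of 0.10 (−0.01 to 0.20). The interval of *Dcn* held 0, and those of *Aspn* and *Bgn* lay above it. Of 11 elastic fibre genes 4 were higher, among them *Efemp2* (1.07) and the fibrillin gene *Fbn2* (0.93). The 2 lower ones included *Eln*, the gene of elastin itself, with 233 CPM in members and 426 CPM elsewhere (log2 −0.87), and *Efemp1* (−1.20). 

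Enzymes that modify collagen were more often higher than lower. Of 16 collagen processing enzymes and chaperones, 7 were higher and none lower, with a median log2 ratio of 0.55. They included the procollagen proteinase *Bmp1* (0.71), the chaperone *Fkbp10* (0.73) and the prolyl hydroxylase *P4ha2* (0.65, but 0.48 against spots of like depth), while the collagen chaperone *Serpinh1* (0.51) and *P4hb* (0.55) were under 1.5-fold. The secretory pathway list had 6 of 21 genes higher and none lower, among them the translocon gene *Sec61b* (0.99) and the retrieval receptor *Kdelr3* (0.90). *Hspa5*, the general chaperone of the endoplasmic reticulum, was level at 0.03 (−0.13 to 0.19). Of 15 matrix proteases and inhibitors, 6 were higher and 1 lower. *Adam12*, a membrane metalloprotease, had 272 CPM against 129 (log2 1.08, 0.86 to 1.29), *Mmp11* 348 against 188 (0.89) and the gelatinase *Mmp2* 1093 against 677 (0.69).

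Contractile genes were mixed. Of 14 counted, 6 were higher and 2 lower, with a median log2 ratio of 0.44. Their summed level was lower in members (8774 against 11050 CPM, log2 −0.33), so the median and the sum differ in sign. The 2 lower genes were the tropomyosins *Tpm1* (−0.84) and *Tpm2* (−1.07), which skeletal muscle also expresses. The 6 higher genes included actin, transgelin and myosin light chain of the smooth muscle type, and the remaining 6 were within 1.5-fold.

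*Acta2*, the smooth muscle actin that marks myofibroblasts, ranged from 0 to 2143 CPM (median 554) over members and from 0 to 2310 (median 330) over other spots. Pooled, it had 708 CPM (661 to 758) in members and 388 CPM (366 to 410) elsewhere, a 1.83-fold difference. *Tagln*, which encodes transgelin, an actin-binding protein, ranged from 0 to 989 CPM (median 197) in members and from 0 to 1101 with a median of 0 in the rest. Its pooled level of 259 CPM (230 to 289) was 2.82-fold that of the other spots at 91.7 CPM (81.6 to 103). *Myl9*, the regulatory light chain of smooth muscle and nonmuscle myosin, ranged from 0 to 1041 CPM (median 268) in members and from 0 to 1100 (median 70.1) elsewhere, and its pooled level was 2.38-fold higher. For all 3 genes the highest single spot lay outside the members, and the medians were higher in the members. Other spots went down to 539 UMIs, where few UMIs of a gene give a high CPM. For genes of such levels, here and below, single-spot extremes and medians of 0 therefore depend in part on depth. The calponin gene *Cnn2* (log2 1.17, 0.96 to 1.37) and the caldesmon gene *Cald1* (0.75) were higher as well.

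Smooth muscle genes are textbook targets of serum response factor, which binds the CArG box, and the promoters of the contractile list are shown for this reason. The box was searched on both strands only as CC, then 6 letters A or T, then GG, with no mismatch allowed. Boxes that depart from this pattern were not searched for, so a gene without a match can still hold such a box. In RefSeq promoter windows of 300 bases (250 before and 50 after the gene start, GRCm38.p6), 12 of the 15 listed genes had a window. Of these, 2 held a CArG box of this strict form. Over all 32851 windows, 535 (1.63%) held the box. *Tagln*, *Actg2* and *Cdh11* had no window in the table. The stretch in *Cnn2* lies at chr10:79988534-79988563 on the plus strand with the box 56 bases before the gene start, and that in *Myl9* at chr2:156775293-156775322 on the plus strand with the box 161 bases before the start; capitals mark the box of 10 bases.
Cnn2: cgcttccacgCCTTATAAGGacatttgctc
Myl9: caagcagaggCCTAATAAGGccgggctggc
These matches are a description of letters and not of binding. Both genes are among the 6 contractile genes that were at least 1.5-fold higher, as is *Tagln*, which had no window. A link between the box and the level was not tested.

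Receptors for the matrix followed it in part. Of 10 counted integrin subunits 4 were higher and 1 lower: the collagen receptor chain *Itga11* had 97.4 CPM against 48.6, *Itgb5* 347 against 182 (0.93), and the fibronectin receptor chain *Itga5* stood at 0.73. Of 11 genes of TGFβ signalling, the main inducer of myofibroblasts, 3 were higher and 1 lower. *Tgfbr2*, a receptor, had 297 CPM against 170 (log2 0.81) and the ligand *Tgfb3* 118 against 72.6 (0.69, but 0.24 for the top 10% by score and 0.31 with equal weight of the score genes), while *Tgfb1* had an interval that held 0 (0.39, −0.03 to 0.80). Among 9 fibroblast receptors and transcription factors 3 were higher, including *Creb3l1* (0.77), a regulator of collagen secretion, and *Runx1* (0.74). *Pdgfra*, the growth factor receptor of fibroblasts, stood at 0.39 (0.10 to 0.67). Of the interleukin 1 ligands and receptors, 2 genes were counted, both within 1.5-fold. The list summed to 119 CPM against 141, with an interval that held 0 (log2 −0.24, −0.52 to 0.03). The ligand *Il1b* itself could not be assessed well, with 6 UMIs in members and 8 elsewhere.

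The study singled out 9 inflammation-related candidate genes, of which *Itgbl1*, encoding integrin beta-like 1, was followed furthest. Of the 8 with at least 100 UMIs, 2 were higher in granulation spots and 5 lower. *Itgbl1* ranged from 0 to 636 CPM (median 134) over members and from 0 to 918 (median 0) over other spots. Pooled, it had 171 CPM (149 to 196) against 106 CPM (95.6 to 118), a 1.61-fold difference (log2 0.69, 0.43 to 0.94), which against other spots of like depth was 0.57 and under 1.5-fold. *Lrrc17*, a secreted leucine-rich repeat protein, ranged from 0 to 665 CPM (median 171) in members and from 0 to 1052 (median 0) elsewhere. Its pooled level was 2.28-fold higher (log2 1.19, 0.95 to 1.43). These were the 2 candidates on the side of the matrix genes.

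The opposite side held *Clec3b*, which encodes tetranectin, at 32.7 CPM in members and 124 CPM elsewhere, 3.80-fold lower (log2 −1.93, −2.44 to −1.45). *Pi16*, a marker of adventitial and fascial fibroblasts, had 59.6 CPM against 156, 2.61-fold lower. The complement genes *C3* (95.7 against 183 CPM) and *C4b* (74.7 against 134 CPM) were lower too. *Ccl11* was past 1.5-fold at −0.67 with an interval that held 0 (−1.43 to 0.03), and *Ccl7* was level at 0.04 (−0.60 to 0.64). *Saa3* had 9 UMIs in members and 59 elsewhere and was not counted. Among markers of the study's fibroblast subclusters, the F3 list around *Pi16* had 4 of 7 counted genes lower and none higher, and the F1 list 3 of 8 lower and none higher, and *Mgp*, the matrix Gla protein, which belongs to it, stood at −0.57, within 1.5-fold. The F4 list was near level by its median of −0.02, with 1 of 5 lower and none higher. Its sum was higher in members, at 1553 CPM against 1322 (log2 0.23, 0.15 to 0.31).

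Macrophage RNA was higher by a modest amount. The 9 counted macrophage genes summed to 3562 CPM in members and 2655 CPM elsewhere, with 1 past 1.5-fold (*Tyrobp*, 0.70) a share close to that over all genes, and a median log2 ratio of 0.31. *Lyz2*, the lysozyme of myeloid cells, had 1396 CPM against 960 (log2 0.54, 0.45 to 0.63), and the complement gene *C1qb* 576 against 398 (0.53). Of 5 genes of resident-type macrophages, 4 were lower, among them *Folr2* (−1.21, −1.99 to −0.51), *F13a1* (−1.03) and the mannose receptor *Mrc1* (−0.64), and 1 was higher (*Wfdc17*, 0.65). Their sum stood at −0.12 with an interval that held 0 (−0.29 to 0.04). When the score genes were given equal weight, *Folr2*, which rested on 19 UMIs in members, turned to 0.17, *F13a1* stood at −0.28 and *Mrc1* at −0.13, so these 3 calls were lost. Neutrophil markers summed to 106 CPM against 148 and T cell markers to 43.6 CPM against 62.5, with 1 and 0 counted genes, so little of either could be seen.

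Endothelial RNA was higher by a small amount, with a sum of 810 CPM in members against 673 CPM elsewhere (log2 0.27, 0.16 to 0.38). The median log2 ratio of the list was 0.41. Of 11 endothelial genes 1 was higher and 1 lower, shares close to those over all genes: *Vwf*, a clotting protein stored in endothelium, had 55.4 CPM against 30.8 (0.85), while the junction gene *Pecam1* had 93.2 against 96.6 (−0.05, −0.38 to 0.26) and *Cdh5* stood at 0.41 (0.11 to 0.71). The pericyte list had 2 of 7 lower and none higher. The angiogenic ligand *Vegfa* was lower at −0.77, and at −0.55 against spots of like depth. Of 7 chemokines 4 were lower, led by *Cxcl14* of skin epithelium and fibroblasts (40.3 against 110 CPM, −1.46), and *Cxcl12* stood at 0.36. The glycolysis list, to which skeletal muscle contributes much RNA, had 5 of 12 genes lower, with *Ldha* at −0.79, and 2 higher, with *Eno1* at 1.23 (0.82 to 1.65). The proliferation list had 1 of 9 higher, and *Mki67* stood at 0.45 (−0.05 to 0.93).

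Over all genes outside the score, those that stood highest by the bound of their interval nearer to no change were, in order, *Isg15*, *Prss35*, *Rpl35*, *Tmsb10*, *Tagln*, *Rpl41*, *Cmtm7*, *Crabp1*, *Ftl1*, *Postn*, *Rpl10*, *Plp2*, *Rgs10*, *Myl9* and *Uck2*. *Isg15*, a ubiquitin-like protein induced by interferon, had 60.4 CPM (47.3 to 76.1) in members and 13.5 CPM (9.84 to 18.2) elsewhere, 4.46-fold higher, and no UMI in 49 of the 81 members and 423 of the 458 others. Of the 7 counted interferon-stimulated genes, 3 were higher, *Isg15* and *Bst2* (1.05) among them, and none lower, with a median log2 ratio of 0.48. Their sum was level at −0.05 (−0.15 to 0.05), so median and sum differ, and *Ifi27l2a* stood at −0.52. *Prss35*, a secreted serine protease-like protein, ranged from 0 to 1468 CPM (median 418) in members and from 0 to 2038 (median 120) elsewhere, and its pooled level was 3.08-fold higher. *Crabp1*, a retinoic acid-binding protein of some dermal fibroblasts, had 651 CPM against 268, and *Tmsb10*, an actin-binding thymosin, 3543 against 1418. The ribosomal protein gene *Rpl35* had 603 CPM against 221. Of the 84 counted ribosomal protein genes 16 were higher and 1 lower, and they made up 9.34% of UMIs in members and 7.01% elsewhere. Ribosomal protein genes and *Ftl1* have near-identical copies in the genome between which reads can be split, so their single values are uncertain.

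The genes that stood lowest by the same rule, many of them expressed by skeletal muscle, included *Trdn*, *Myh1*, *Mb*, *Mir99ahg*, *Myh2*, *Clec3b*, *Nctc1*, *Capns2*, *Fa2h*, *Mybpc1*, *Tcap*, *Elovl6*, *Myoc* and *Myh8*. *Trdn*, which encodes triadin of the muscle calcium release unit, was 6.64-fold lower, and the fast myosin *Myh1* 4.50-fold lower at 228 against 1027 CPM. *Acta1*, skeletal muscle actin, ranged from 3040 to 22613 CPM (median 5725) over members and from 3412 to 46472 (median 14022) over other spots, so no spot of either group was free of it. The basal keratin *Krt14* had 499 CPM against 1119 (−1.17), and the wound keratin *Krt6a* stood at −0.50. *Adipoq*, an adipocyte hormone, stood at −1.05 and the globin gene *Hba-a2*, which has a near-identical neighbour, at −1.25.

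Levels were then followed outward from the largest patch, in bands of spots at 1, at 2, at 3 to 4, at 5 to 7 and at 8 or more pitches. The bands held 46, 43, 87, 159 and 142 spots, their median depth went down from 11530 to 3324.5 UMIs, and 19 scattered members lay in the bands from 2 pitches outward. The border of the patch was set by the score: the band at 1 pitch held no member. The score genes had 6987 CPM in the patch and 4042 at 1 pitch. For genes that go with the score, a drop at the border thus follows in part from the choice of spots. For some genes the drop was at this border. *Prss35* had 566 CPM in the patch, 205 at 1 pitch and between 160 and 179 beyond. *Tnn* had 566 CPM in the patch, 222 at 1 pitch and between 219 and 260 beyond, and *Myl9* 354, 171 and between 127 and 172.

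Other genes declined in steps across the section. *Postn* had 6565 CPM in the patch, then 3784, 3289, 2849, 2519 and 1977. *Col1a1* declined from 37952 to 20161 CPM with little difference between the bands at 1 and at 3 to 4 pitches (32650 and 31711). *Isg15* went from 65.9 CPM through 30.5, 21.2, 10.2 and 11.8 to 1.55, and *Rpl35* from 645 to 150. The *Isg15* values rested on 71, 15, 9, 8, 12 and 1 UMIs, and the last had an interval of 0.04 to 8.61 CPM. Its outer steps are therefore uncertain. Macrophage *Lyz2* was as high at 1 pitch as in the patch (1452 and 1445 CPM) and lower from 2 pitches on (946).

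A further set peaked away from the patch. *Clec3b* had 20.4 CPM in the patch, 54.9, 92.0 and 121 in the next bands, 190 at 5 to 7 pitches and 104 at 8 or more. *Pi16* had 44.5 CPM in the patch and 195 at 5 to 7 pitches. The F1 list, which includes elastin and matrix Gla protein, peaked at 2 pitches with 2463 CPM, against 1262 in the patch and 1439 in the outermost band. *Mest*, an imprinted gene of growing tissue, had 349 CPM in the patch, 418 at 2 pitches and 168 farthest out. *Acta1* went up at every step, from 5459 to 17776 CPM.

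**Figure D3:**
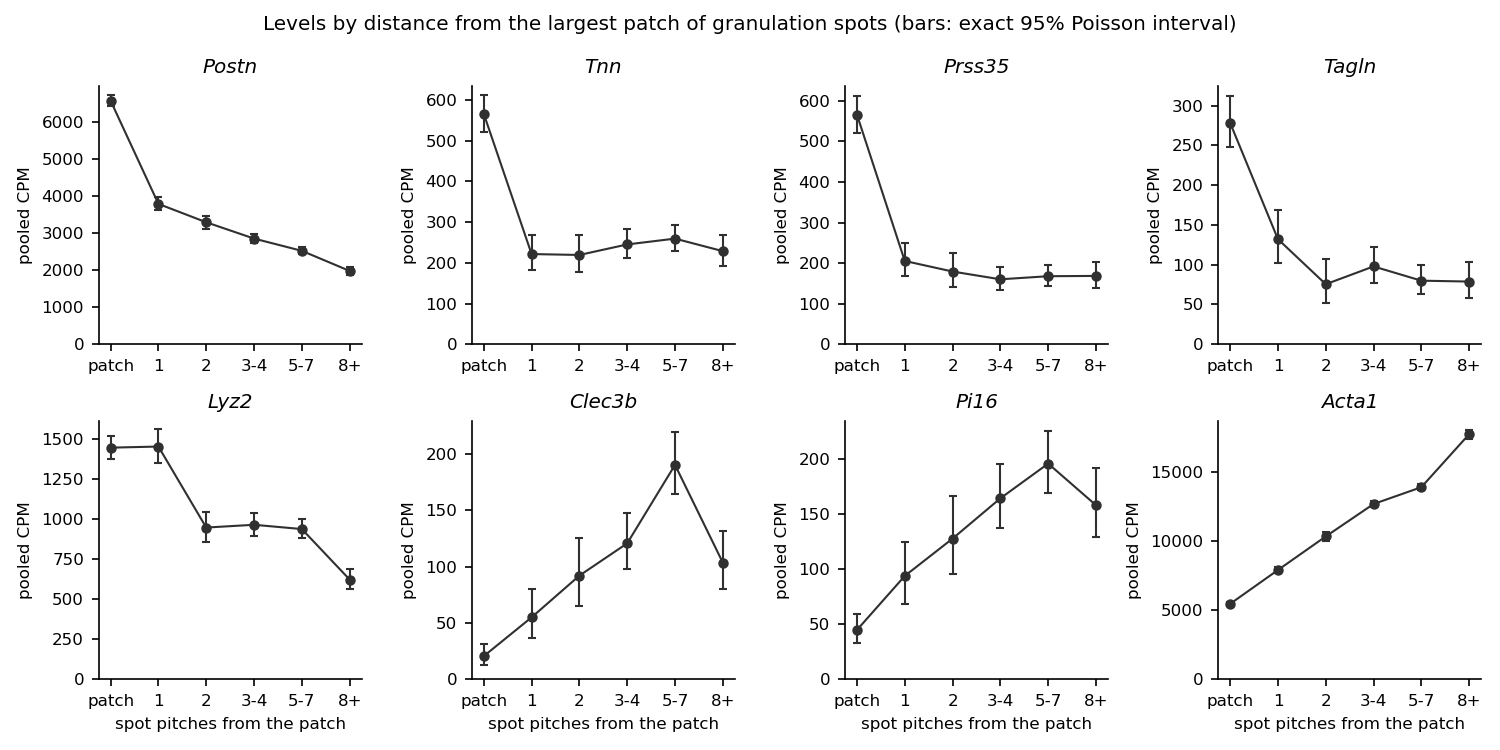
Pooled CPM of 8 genes in the largest granulation patch and in bands of spots at increasing distance from it in spot pitches, with bars for the exact Poisson 95% interval of counting error. *Prss35* and *Tnn* drop at the first band, which holds no member because the score set the border. *Postn* declines stepwise from 6565 to 1977 CPM, and *Clec3b* and *Pi16* are highest at 5 to 7 pitches.

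The members were not alike. They were split by distance from the 54 epidermis-rich spots (the top 10% of Day 7 spots by the epidermis list, 4 of them members) into 41 nearer and 40 farther spots, of similar median depth (12679 and 13213 UMIs). The nearer spots had the higher median score (6735 against 5770 CPM, and 6779 against 6306 within the inner patch defined next), and its part in the differences was not tested. Of 1899 genes with at least 100 UMIs over the members, 69 (3.63%) were at least 1.5-fold higher in the nearer spots and 64 (3.37%) in the farther ones. Of 9 macrophage genes 5 were past 1.5-fold in the farther spots and none in the nearer, of 6 endothelial genes 5 were past it in the nearer spots, and of 13 contractile genes 3. The epidermis list, which set the split, was also higher in the nearer spots, at 2940 CPM against 2158. A second split was therefore added after seeing the data, within the largest patch and without spots in or beside the epidermis-rich ones (26 nearer, 24 farther). Its log2 ratio is given beside the first as the inner-patch ratio. The epidermis list was still higher in the nearer spots of this split, at 2335 CPM against 1854 (log2 0.33, 0.20 to 0.47). The muscle list was higher there too (0.25, 0.21 to 0.29), so the second split did not remove differences in tissue mixture.

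On the nearer side, *Acta2* ranged from 0 to 2143 CPM (median 637) in the nearer spots and from 0 to 1601 (median 454) in the farther ones. Pooled, it had 945 CPM against 460, a log2 ratio of 1.04 (0.83 to 1.25) with an inner-patch ratio of 0.90. *Crabp1* ranged from 0 to 2539 CPM (median 817) in the nearer and from 0 to 1083 (median 227) in the farther spots, 3.06-fold higher with an inner-patch ratio of 1.26. *Col7a1*, the anchoring fibril collagen of the epidermal border, stood at 1.41 (inner-patch 0.77), *Mmp11* at 1.28 (0.91) and *Myl9* at 0.88 (0.73). *Tagln* stood at 0.80, but its inner-patch ratio of 0.32 had an interval of −0.06 to 0.71. The same held for endothelial *Cdh5*, at 1.10 and inner-patch 0.57 (−0.10 to 1.27), and the endothelial sum went from 0.73 to 0.19 (−0.05 to 0.43). *Mmp11*, *Acta2*, *Myl9* and *Crabp1* thus differed within the patch too, while the vessel genes did so less clearly.

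On the farther side, *Lyz2* ranged from 0 to 2978 CPM (median 852) in the nearer spots and from 0 to 3908 (median 1587) in the farther ones. Pooled, it had 989 CPM against 1824, a log2 ratio of −0.88 (−1.03 to −0.74) with an inner-patch ratio of −0.84. *Apoe*, a lipid carrier made by macrophages, ranged from 1568 to 7742 CPM (median 3452) nearer and from 3182 to 11556 (median 5488) farther, with a ratio of −0.82 (inner-patch −0.65). *C1qb* stood at −0.98 (−0.74). The imprinted transcripts *H19* (493 against 1078 CPM, inner-patch −0.58) and *Mest* (−1.23, inner-patch −0.88) were higher in the farther spots, as were *Mmp3* (−1.19, inner-patch −0.69), *Spp1* (−1.07, inner-patch −0.89), *Mgp* (−0.88, inner-patch −0.71) and *Igf1* (−0.78, inner-patch −0.71). *Col1a1* (0.05, inner-patch 0.12) and *Postn* (0.07, inner-patch 0.11) differed little across the split. The sum of the fibrillar collagens stood at 0.05 (0.03 to 0.06) and that of the matricellular list at 0.17 (0.14 to 0.21), both toward the nearer spots. *Col7a1*, *Apoe* and, in the plot of this split, *Selenop* were chosen after their values were seen.

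**Figure D4:**
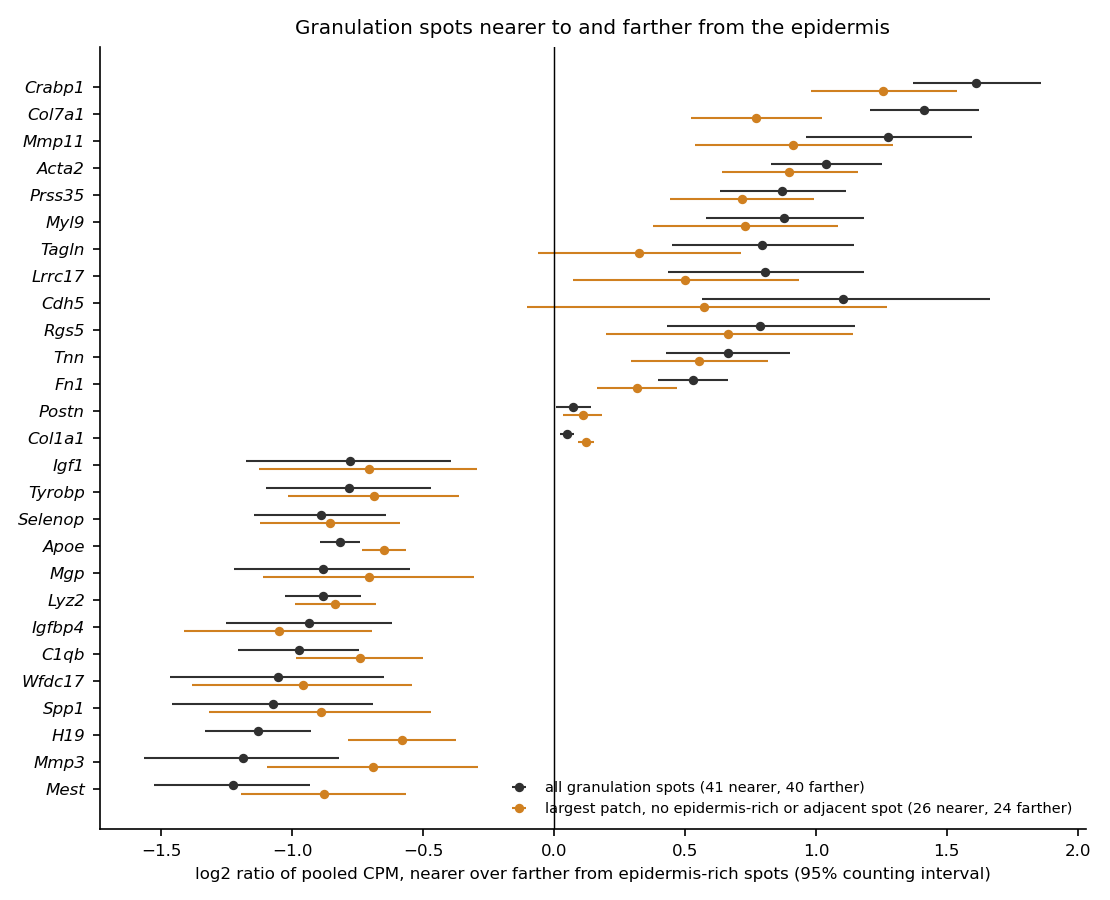
Log2 ratio of pooled CPM in granulation spots nearer to over those farther from epidermis-rich spots, for the 41 against 40 members and for the 26 against 24 spots of the inner patch, with bars for the 95% interval of counting error. *Crabp1*, *Mmp11* and *Acta2* lie above 0 and *Lyz2*, *C1qb* and *Apoe* below 0 in both splits, while *Col1a1* and *Postn* lie close to 0 among the members.

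The middle of the patch and the scattered members were also set apart. The 19 spots with members on all sides had a median of 17762 UMIs and a median score of 7586 CPM, against 11720 UMIs and 5906 CPM in the remaining 62 members, and the log2 ratio of the muscle list between them was −0.46. In these 19 spots *Prss35* had 778 CPM against 413 in the remaining members, *Tnn* 749 against 423 and *Myl9* 475 against 287, whereas *Mgp* had 130 against 340 (log2 −1.38). *Postn* differed little (0.27). The 19 members outside the patch resembled the patch less in several genes: *Tagln* had 70.3 CPM there and 278 CPM in the patch, *Tnn* 167 and 566, and *Postn* 3137 and 6565. *Col1a1* was closer, at 33212 and 37952 CPM. The scattered members had a median of 5069 UMIs, and the log2 ratio of the muscle list, patch over scattered members, was −1.12.

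The same score and the same 15% of spots were applied within the Day 3 and Day 14 sections, which have their own spots and do not share the Day 7 comparison spots. The limit on the score was 2903 CPM in the Day 3 section, 4996 in the Day 7 section and 1908 in the Day 14 section, which means that the chosen spots are not equally rich in the score genes. At the Day 7 limit, 21 of 520 spots (4.04%) passed on Day 3 and 2 of 689 (0.290%) on Day 14. *Postn* was higher in the chosen spots of each day, with log2 ratios of 1.33, 1.18 and 1.79 on Days 3, 7 and 14. *Fn1* (0.85, 0.95, 1.29) and *Lyz2* (1.17, 0.54, 1.08) were higher on each day as well. *Lrrc17* was too (2.05, 1.19, 1.49), from 82 UMIs on Day 3 and 78 on Day 14.

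Several genes had another sign on Day 3. *Col1a1* stood at −0.39 on Day 3, 0.42 on Day 7 and 0.92 on Day 14, *Mmp2* at −0.72, 0.69 and 0.88, and *Aspn* at −0.89, 0.90 and 1.70. *Itgbl1* stood at −1.39 (−2.38 to −0.53, from 12 UMIs in the chosen spots) on Day 3, at 0.69 on Day 7 and at 1.33 (0.91 to 1.73) on Day 14. On Day 3 the score therefore chose spots with less of these 4 genes than their surroundings. *Pi16* (−0.32, −1.39, 0.27) and *Clec3b* (−1.62, −1.93, 0.19) had their lowest ratio on Day 7, although the intervals of *Clec3b* on Day 3 (−2.09 to −1.19) and on Day 7 (−2.44 to −1.45) overlapped. *Acta2* stood at 0.20 (−0.36 to 0.74), 0.87 and 0.33 and *Spp1* at 1.25, −0.36 and 0.16. The differences between days were not tested, and day, animal, section and slide cannot be told apart.

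**Figure D5:**
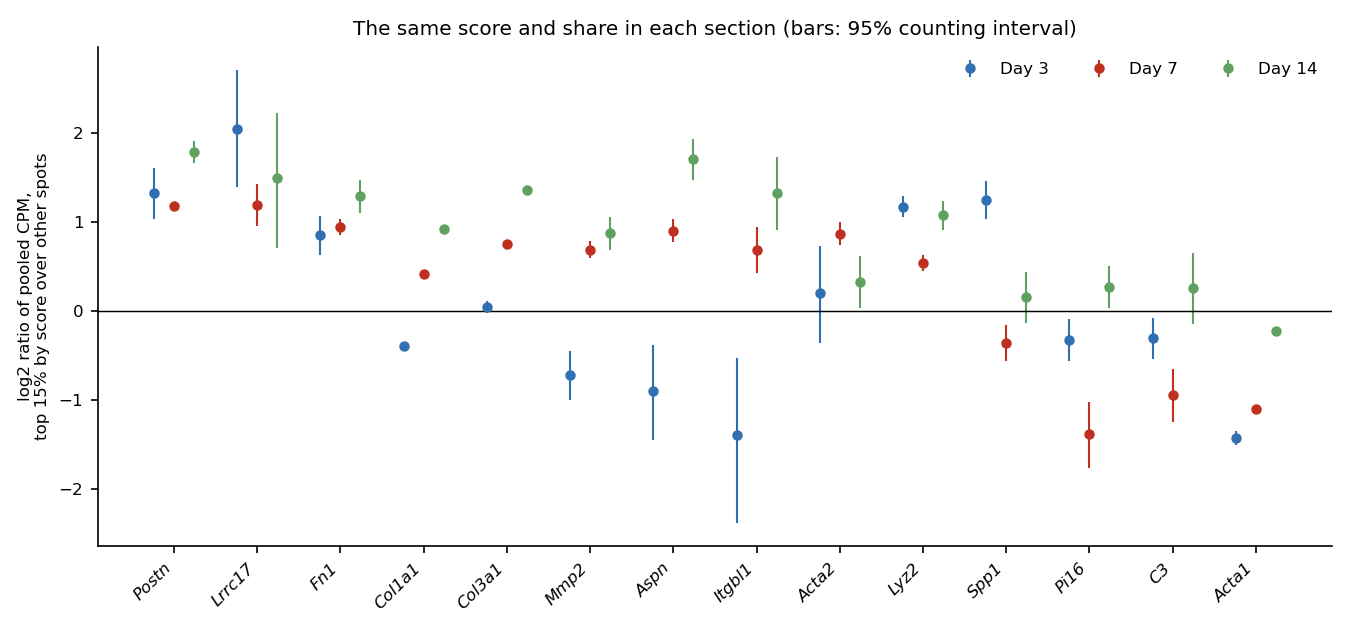
Log2 ratio of pooled CPM, the top 15% of spots by the score over the other spots, within the Day 3, Day 7 and Day 14 sections, with bars for the 95% interval of counting error. *Postn*, *Fn1* and *Lrrc17* lie above 0 on all 3 days, and *Col1a1*, *Mmp2*, *Aspn* and *Itgbl1* lie below 0 on Day 3 and above 0 on Days 7 and 14.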

How the data were processed

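Raw UMI counts per gene and spot were deposited by the authors (10x Visium libraries; per the submitters' processing notes, Space Ranger 1.3.0 and mm10), with position lists marking spots under tissue. No normalization was applied by them. Each matrix holds 32285 genes and 4992 spots.

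From these counts, UMIs were summed over granulation spots and over other spots and divided by all UMIs of the group (CPM). Sums carry exact Poisson and ratios exact conditional binomial 95% intervals, for counting error only. Genes counted had at least 100 UMIs over both groups, outside the 10 score genes, and 1.5-fold was the limit for higher or lower. There were 42 gene lists. Genes named were list members, the 15 highest and 15 lowest, ranked by the end of the interval closer to 0, and the score genes, with exceptions stated; 1 of the 15 lowest is not reported here. The members and lists were chosen with earlier results of these data known. With 1 section per day there was no test. No doublet caller or deconvolution was run. CArG boxes were searched in RefSeq promoters of GRCm38.p6, the patch-level release of the same mouse assembly as mm10.

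"Spots of like depth" are the 157 other spots with at least 8355 UMIs, the lower quartile of the members. Alternatives covered the depth limit, the share and weighting of the score, the comparison spots, scaling (TMM of edgeR 4.0.16, size factors of DESeq2 1.42.0), background and thinning. The ratio and its interval were tested on pooled counts simulated with Poisson error only. Such counts hold no variation between spots, so this test says nothing about that variation. Python 3.11.15, NumPy 2.4.6, SciPy 1.17.1, pandas 2.3.3, Matplotlib 3.10.9 and R 4.3.3 were used.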

Additional observations from a re-analysis of the deposited data

Results flagged for a closer look

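Each of the following differs in direction between sections under the same choice of spots (the top 15% by the score over the other spots of that day), and in no case was the difference tested. On Day 3, *Aspn* had a log2 ratio of −0.89 against 0.90 on Day 7, *Mmp2* −0.72 against 0.69, and *Itgbl1* −1.39 against 0.69. The globin gene *Hba-a2* stood at 0.77 on Day 3 and at −1.25 on Day 7. On Day 14, *Rpl10* stood at −0.65 against 1.31 on Day 7, *Plp2* at −1.15 against 1.57, from 8 UMIs in the chosen Day 14 spots, and *Mir99ahg* at 0.90 against −2.59.

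Spots not marked as under tissue, which enter no comparison, also carried the score. Of the unmarked Day 7 spots with at least 500 UMIs, 6.14% (130 of 2118) reached the Day 7 limit. On the Day 3 slide 2 of 674 did so, and on the Day 14 slide 12 of 1780. These Day 7 spots had a median of 1176.5 UMIs, lay a median of 8.66 pitches from the nearest marked spot, and 28 of them formed 1 connected group. What lies under them was not tested.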

How the results depend on the processing

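The numbers of genes past 1.5-fold, 474 higher and 919 lower, moved most with the filter and the fold: 746 and 1460 with a minimum of 50 UMIs, 196 and 334 with 300, 2506 and 4701 with 1, and 70 and 343 at 2-fold. The mean of spot CPM gave 757 higher genes. Thinning every spot to 1000 UMIs gave 123 and 141 among 734 genes that kept 100 UMIs, and genes below that got no value. Against other spots of like depth, an alternative chosen after seeing the data like that of the largest patch alone, 272 of 5322 genes were higher. The share of members in the largest patch was 90.7% for the top 10% by score and 51.9% with equal weight of the score genes, a choice that kept 47 of the 81 members.

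Over 17 alternatives, 66 of the 93 named genes past 1.5-fold stayed past it in all and 91 kept their sign in all. With equal weight *Folr2* reversed to 0.17 from −1.21 and *Ccn5* to 0.12 from −0.62, and the cause was not tested. Among 9 lists whose sum was past 1.5-fold, 7 stayed past it and all 9 kept their sign. Equal weight ended the call of *Clec3b* (−0.40), *C4b* (−0.17), *Mmp11* (0.38) and *F13a1* (−0.28), and like depth those of *P4ha2* (0.48), *Itgbl1* (0.57), *Wfdc17* (0.56), *Sparc* (0.58), *Mmp2* (0.54), *Tyrobp* (0.53), *Vegfa* (−0.55) and *Ldha* (−0.57). *Tgfb3* and *Mrc1* each lost the call under 5 alternatives (0.24 to 0.58 and −0.51 to −0.13). Under at least 1 alternative the call was also lost for *Col6a3*, *Col18a1*, *Bmp1*, *Itga5*, *Eln*, *Efemp1*, *Ccl11*, *Ccn5*, *Vwf*, *Adipoq*, *Fabp4* and *Col7a1*. TMM and DESeq2 scaling shifted all log2 ratios by 0.03 and 0.04. No paired analysis was possible because each day has 1 section. Depth limits genes of low count, such as *Il1b* and *Saa3*, and 1 section gives no measure of variation between animals.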

Other observations

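Other lists were read in the same way, as values over granulation and other Day 7 spots. Of 12 nuclear-encoded respiratory chain genes 3 were lower and none higher, with a median log2 ratio of −0.40. Of 10 IGF system genes 1 was lower and none higher (median −0.03), while the 9 imprinted growth genes had 1 in each direction (median 0.24) and the 4 secreted Wnt antagonists had 1 higher (median 0.11). Of 8 repair-type macrophage genes 1 was lower (median 0.12), and of 5 MHC class II genes none was past 1.5-fold (median 0.10).

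The 3 embryonic muscle genes counted were all lower, as were the 4 red blood cell genes (log2 ratios from −1.25 to −0.65). Of 3 angiogenic ligands 1 was lower (median −0.54), of 3 Schwann cell genes 1 was lower, and the 1 mast cell gene counted was lower, with the list at 21.8 CPM in granulation spots and 60.6 CPM elsewhere.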
